A study of Mus musculus with 14 samples.

Results

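Retinal ganglion cells (RGCs) are the neurons that carry the output of the retina to the brain. The nuclei described here are those that the authors' deposited labels call RGC, 1690 of 77676 retina nuclei. RGCs receive synapses from bipolar and amacrine cells in the inner plexiform layer, and their axons form the nerve fiber layer and the optic nerve. Their cell bodies lie beside the superficial vessels of the retina, they secrete angiogenic factors, and after axon injury or ischemia they switch on stress genes and can die. They fall into many subtypes that differ in dendrites, light responses and transcription factors.

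Whole mouse retinas were profiled at postnatal day 14 by single-nucleus RNA sequencing (PIPseq, in which each captured transcript carries a unique molecular identifier, UMI) to ask what follows in the retina when endothelial cells (ECs) lose TGF-beta signaling. The CKO group comprised 11 libraries from *Cdh5CreER;Tgfbr1 CKO/-* mice treated with 4-hydroxytamoxifen between postnatal days 3 and 5, in which the EC promoter *Cdh5* drives the recombinase, so that the floxed *Tgfbr1* allele is lost in ECs while the minus allele is carried by every cell, RGCs included. The series' design text writes this driver as VEcadCreER and calls the mice young adults, and the paper gives the age used here. The control group was 1 library, which the labels call wild type. The paper states that its controls typically carried *Cdh5CreER* with 1 intact *Tgfbr1* allele, and neither source states the genotype or the treatment of this library beyond that. Neither source says how many animals were pooled for a library, so each was treated as 1 replicate.

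The libraries fall into 3 batches of the authors' table and 2 kits, which the design ties to genotype. Batch 1 held the control and CKO replicates 1 to 3, batch 2 held CKO replicates 4 and 5, and batch 3 held CKO replicates 6 to 11. CKO replicates 8 to 11 were made with kit version 5 and all others with version 4. The sets of gene symbols differ, since 1306 symbols lack UMIs in batch 3 and 1848 others lack them in the earlier batches. The paper names a GRCm39 index for its reads, the submitters' notes name mm10, and neither gives a reference by batch. Every comparison below rests on a single control, and only batch 1 holds both genotypes. The kits can be compared only among CKO libraries, within batch 3.

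The RGC label was checked against 5 genes that mark RGCs. These are *Rbpms*, an RNA-binding protein, *Slc17a6*, the vesicular glutamate transporter VGLUT2, *Pou4f1* and *Pou4f2*, transcription factors of RGC identity, and *Nefl*, the neurofilament light chain. Of the 1690 nuclei, 92.1% held a UMI of at least 1 of the 5 genes and 72.2% held at least 2. In amacrine nuclei, which should lack these genes, 0.83% held at least 2, with a median depth of 4133 UMIs against 8540 in RGC nuclei. The label was followed less closely in shallow nuclei. Of 76 RGC nuclei with up to 500 UMIs, 47.4% held a marker, compared with 99.8% of 536 nuclei with 8000 to 16000 UMIs. At the greatest depth, over 16000 UMIs, 12.4% of 571 amacrine nuclei also held at least 2 of the markers.

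Levels are given as CPM, the UMIs of a gene as a fraction of all UMIs of the nuclei summed, times 1000 and again times 1000. Summed over all libraries, *Rbpms* stood at 726 CPM in RGC nuclei and at 75.2 CPM in astrocytes, the next highest cell type. *Slc17a6* stood at 111 CPM in RGC nuclei and 6.47 CPM in horizontal cells. *Pou4f1* stood at 64.5 and 4.22 CPM in the same pair of cell types, and *Pou4f2* at 17.0 and 0.984 CPM. *Nefl* separated RGCs least, with 79.8 CPM against 21.5 CPM in astrocytes. The paper states that clusters were identified by established retinal markers, and its text does not name those used for RGCs. Since the label came from transcripts of the same nuclei, these levels check it and test nothing.

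CKO replicate 4 went against the label. It held 104 nuclei in all, of which 25 were called RGC, with 36147 UMIs together. *Rbpms* had 0 UMIs in them, where its level in the other libraries would give 26.3, and *Pou4f1* and *Pou4f2* had 0 as well. Only 3 of the 25 nuclei held any of the 5 markers. The amacrine gene *Dab1* stood at 2379 CPM against 453 to 651 CPM in the other libraries, and the macrophage gene *Mrc1* at 581 CPM against at most 3.55 CPM. Both *Xist* (53 UMIs) and the Y-linked *Uty* (3 UMIs) were present in these nuclei. The library fell under the minimum of 50000 RGC UMIs and was left out of the fits apart from 1 alternative. The RGC share of all nuclei is given with and without it. The other 11 libraries held 1665 RGC nuclei and 19053927 UMIs, from 62 to 322 nuclei and 873473 to 3137706 UMIs per library. Of all cell barcodes, 10 occurred in more than 1 library, and 0 among RGC nuclei.

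The 10 genes with the highest ratio of RGC level to that of the next cell type, 2 of the 5 markers among them, were listed among genes with at least 500 RGC UMIs. The long noncoding RNA *D130079A08Rik* led with 618 CPM in RGCs against 12.8 CPM in horizontal cells, a ratio of 48.3. In the GENCODE M39 annotation (GRCm39) it lies on chromosome 14 on the same strand as *Pou4f1* and 2338 bases from it. *D130009I18Rik*, with a ratio of 23.1, lies 132536 bases from *Pou4f1* on its other side. The others were *9130024F11Rik* with a ratio of 31.5, and *Slc17a6*, *Nrn1*, which encodes the neurite protein neuritin, *Pou4f1*, *Aifm3*, *Srgap1*, an effector of Slit-Robo guidance, *2600014E21Rik* and *Gm49678*, with ratios from 13.2 to 17.1.

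These genes were not spread alike over RGC nuclei. After each nucleus was thinned to 2000 UMIs, *D130079A08Rik* was found in 54.5% and *D130009I18Rik* in 20.5% of 1377 nuclei. The 2 genes met in 248 nuclei, where 154 would be expected if they were independent within libraries. *D130009I18Rik* and *Pou4f1* met in 63 nuclei against 38.0 expected. *Aifm3* and *Pou4f2* never met, with 2.84 nuclei expected, so the depth could hardly show a difference.

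The share of RGCs among nuclei was compared first, since RGC loss would lower it. In the control, 229 of 11513 nuclei were RGCs, or 1.99% (95% exact binomial interval 1.74 to 2.26). In the CKO libraries the share was 1.65% at the lowest, 2.35% at the median and 24.0% at the highest, with a mean of 4.26% ± 6.57 (SD, n = 11). The highest value was that of CKO replicate 4, and 8 of 11 CKO libraries were above the control (two-sided exact permutation test, p = 0.417, smallest possible p 0.0833). Without CKO replicate 4 the mean was 2.28% ± 0.405 (SD, n = 10), with 7 of 10 libraries above the control (exact permutation test, p = 0.636). Within batch 1 the CKO replicates stood at 2.27%, 2.69% and 2.82%, all 3 above the control, where the smallest possible exact p is 0.25. The control lay inside the range of the CKO libraries. Among nuclei with at least 1000 UMIs the RGC share was 2.88% in the control and 2.76% ± 0.852 (SD, n = 10) in CKO libraries without replicate 4, with 5 of 10 above, so the sign of the difference depends on the nuclei counted. Relative to amacrine cells, the control held 12.3 RGC nuclei per 100 amacrine nuclei and the CKO libraries without replicate 4 held 13.6 ± 2.18 (SD, n = 10).

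**Figure D1:**
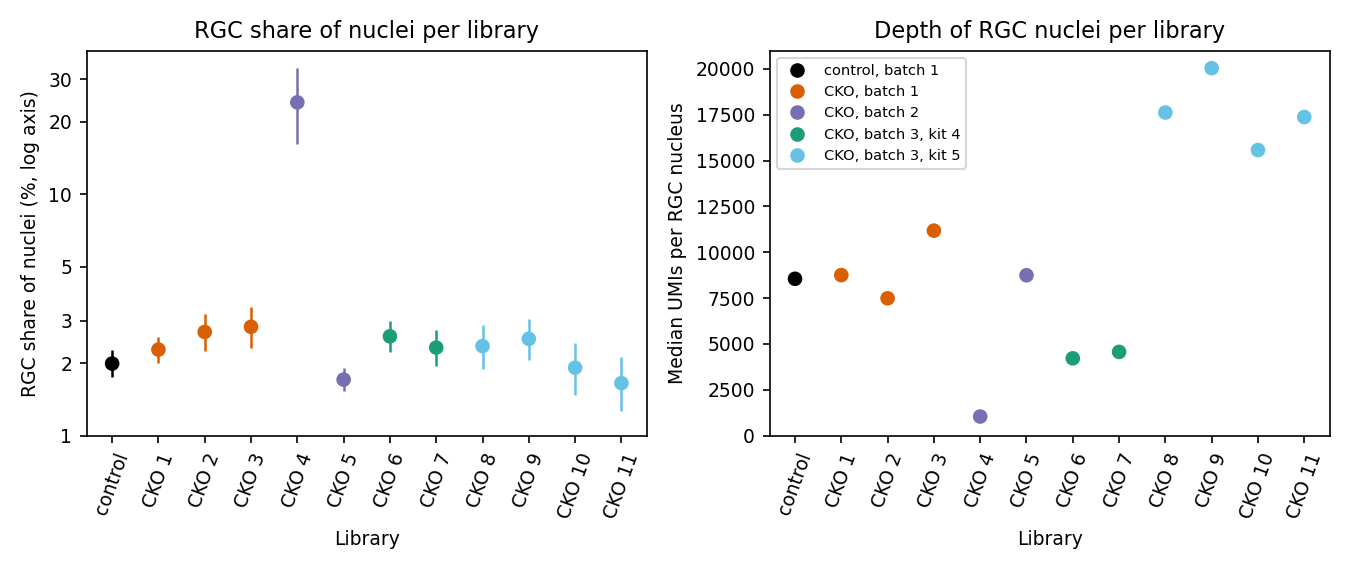
RGC share of nuclei in percent on a log axis with 95% exact binomial intervals (left) and the median UMIs per RGC nucleus (right) in each of the 12 retina libraries, colored by batch and kit. CKO replicate 4 stands at 24.0% of 104 nuclei, and the other 10 CKO libraries lie between 1.65% and 2.82% around the control at 1.99%.

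RGC nuclei were captured at unlike depths. The median was 8555 UMIs per RGC nucleus in the control and 4217, 9969 and 20042 at the lowest, median and highest of 10 CKO libraries, with a mean of 11558 ± 5715 (SD, n = 10; exact permutation test, p = 0.727). The 4 libraries of kit version 5 were the 4 highest, between 15578 and 20042 UMIs. Among libraries of kit version 4 the CKO mean was 7493, below the control, with 3 of 6 libraries above it. In batch 1 the CKO replicates stood at 8756, 7491 and 11182 UMIs, on both sides of the control, with a mean of 9143.

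Gene expression was compared on UMIs summed over the RGC nuclei of each library. In such sums, fewer RGCs of a subtype and less RNA per cell cannot be told apart. edgeR's quasi-likelihood test with batch and kit as covariates was applied to 13329 genes with at least 50 UMIs. At an adjusted p under 0.05, 0 genes were higher (0% of those tested) and 0 were lower (0%) in CKO RGCs. At an unadjusted p under 0.05, edgeR gave 287 higher (2.15%) and 221 lower (1.66%) genes, and DESeq2, which also called 0 genes after adjustment, gave 137 higher and 63 lower. The smallest adjusted p was 0.419, and the median log2 fold change was 0.00. With batch 1 alone, edgeR called 4 genes (0.0375% of those tested), and with genes of at least 1 UMI it called 25 (0.106%), *Stat3*, *Fgf2* and *Pdgfd* among them. The p-values measure only the spread between these libraries, and the single control was assumed to vary like the CKO libraries. In the same fit, the kit term was called for 263 genes higher (1.97%) and 403 genes lower (3.02%) with kit version 5. The nuclear RNA *Malat1* shows the size of that difference, with 56011 CPM in the control, 39835 to 66358 CPM in CKO libraries of kit version 4 and 9416 to 12091 CPM in those of version 5. *Malat1* was chosen after its values were seen. CPM, unlike the fits, are not scaled by edgeR's TMM factors, which adjust library totals. For RGC sums these were 0.919 in the control, 0.924 to 0.962 in CKO libraries of kit version 4 and 1.07 to 1.14 with version 5. Scaling by them would lower every CKO level in RGCs relative to the control.

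The RGC genes were read first for the targeted pathway. *Tgfbr1*, the type I receptor, stood at 59.4 CPM in control RGCs and at 37.7, 45.9 and 65.4 CPM at the lowest, median and highest CKO library. It was lower than in the control in 9 of 10 CKO libraries, all but CKO replicate 8, and the log2 fold change of -0.48 ± 0.23 (SE) missed the threshold. Because the place of the deleted sequence relative to the counted tags is not given, this level does not check the knockout, which is in any case aimed at ECs. *Tgfbr2*, the type II receptor, had 39 UMIs in all RGC nuclei and was not tested. *Tgfbr3*, the co-receptor betaglycan, stood at 31.7 CPM in the control and 34.1 to 46.4 CPM in CKO libraries, above the control in 10 of 10. By CPM, without TMM scaling, a control below all 10 CKO libraries was found for 984 of the tested genes (7.38%), and a control above all 10 for 435 (3.26%). *Skil*, which encodes a repressor of SMAD signaling and is induced by it, also lay below, at 17.3 CPM against 25.8 to 59.0 CPM, as did the activin receptor *Acvr2a*. Of 39 genes of the TGF-beta pathway, 26 were tested, and 18 of them were higher and 8 lower with a median log2 fold change of 0.13, compared with 6684 higher and 6644 lower of all genes tested. Without CKO replicate 3 they were 14 higher and 12 lower with a median of 0.05, and with a term for *Xist* 15 higher and 11 lower with a median of 0.06. The summed level of all 39 listed genes was 1131 CPM in control RGCs and 1217, 1244 and 1619 CPM at the lowest, median and highest CKO library. In amacrine nuclei of the same libraries 10 of the 26 were higher, with a median of -0.03.

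RGC identity genes were next. *Rbpms* stood at 745 CPM in the control and 487, 677 and 1002 CPM at the lowest, median and highest CKO library, with a log2 fold change of -0.40 ± 0.22 (SE). *Pou4f1* stood at 68.4 CPM in the control and 43.5, 58.0 and 86.4 CPM in CKO libraries (log2 -0.45 ± 0.21, SE). For both genes 7 of 10 CKO libraries, including all 3 of batch 1, were below the control, and the groups overlapped. *Slc17a6* was 107 CPM in the control and 81.4 to 175 CPM in CKO libraries, *Pou4f2* 14.8 CPM and 6.19 to 32.6 CPM, and *Nefl* 61.4 CPM and 19.5 to 160 CPM. The median log2 fold change over the 5 markers was -0.40, with 5 of 5 lower, -0.27 when kit was the only covariate, and -0.07 with 2 higher and 3 lower when genotype was the only term. For *Rbpms* alone the log2 fold change was -0.09 with kit only and -0.19 with genotype only. *Pou4f2* and *Nefl* changed sign when genotype was the only term.

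Wider lists of RGC genes held more lower than higher genes, by small amounts, where all tested genes were 6684 higher and 6644 lower. Of 23 tested RGC transcription factors 17 were lower, with a median log2 fold change of -0.21. Their median was -0.10 with kit only, -0.13 without CKO replicate 2 and -0.34 without CKO replicate 1. *Ebf2*, an early B-cell factor, stood at 21.0 CPM in the control and 6.11 to 17.5 CPM in CKO libraries, below it in 10 of 10, while *Pou4f3* stood at 1.24 CPM from 3 UMIs and 1.55 to 6.87 CPM, above it in 10 of 10, with a ratio of 2.30 in batch 1 and a counting interval of 0.65 to 12.4. Among cytoskeletal and axonal genes 15 of 20 were lower (median -0.17), among them the medium neurofilament *Nefm* at 69.2 CPM against 30.2 to 98.7 CPM. Ion channel genes were lower for 20 of 26 (median -0.14), guidance and adhesion genes for 23 of 37 (median -0.07) and synaptic genes for 22 of 37 (median -0.06). The GABA receptor subunit *Gabrb1* stood at 306 CPM in control RGCs and 199, 227 and 357 CPM in CKO libraries, lower in 9 of 10. Of 22 neurotrophic signaling genes 11 were higher and 11 lower, with a median of 0.01. When kit was the only covariate the cytoskeletal median was -0.02 and the ion channel median -0.06, and guidance genes were 18 higher and 19 lower. Without CKO replicate 2 the synaptic genes were 19 higher and 18 lower with a median of 0.01. The size of these tendencies, and the sign for synaptic genes, thus depended on the model and the libraries. The RGC transcription factors were more often lower than higher under every alternative run.

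Genes of injury and of the integrated stress response were higher more often than lower. Of 38 listed genes 22 were tested in RGCs, 17 higher and 5 lower, with a median log2 fold change of 0.32. Without CKO replicate 1 this lean was absent, with 10 higher and 11 lower and a median of -0.02. *Stat3*, a transducer of cytokine signals, stood at 48.6 CPM in the control and 70.5, 93.3 and 134 CPM at the lowest, median and highest CKO library. *Hmox1*, which encodes heme oxygenase, had 1 UMI in the control, and its level in batch 1 CKO RGCs was 16.6 times higher with a counting interval of 2.79 to 672. *Gadd45a*, a growth arrest gene, stood at 2.47 CPM in the control and 1.27 to 10.6 CPM in CKO libraries. For *Stat3* and *Hmox1* 10 of 10 CKO libraries were above the control, and for *Gadd45a* 9 of 10. Amacrine nuclei gave like values, with log2 fold changes of 0.80 for *Stat3* and 3.27 for *Hmox1*. Genes that RGCs are known to induce after axon injury were sparse: *Atf3* had 16 UMIs in all RGC nuclei and *Ecel1* 16, and neither was tested, while *Sox11* (log2 0.07), *Jun* (0.09) and *Ddit3* (0.65) were within 1 SE of 0. The summed level of the list was 320 CPM in control RGCs and 345, 427 and 523 CPM at the lowest, median and highest CKO library, above the control in 10 of 10.

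Hypoxia genes were likewise higher in most cases. Of 39 tested genes 30 were higher and 9 lower in CKO RGCs, with a median log2 fold change of 0.19, and 7 had an unadjusted p under 0.05, all higher, where 2.15% of all tested genes were higher at that threshold. *Ldha*, lactate dehydrogenase, stood at 55.6 CPM in the control and 46.8, 98.8 and 146 CPM in CKO libraries (log2 0.83 ± 0.22, SE, and 0.45 with kit only). *Hk2*, hexokinase, stood at 31.7 CPM in the control and 25.7, 43.4 and 95.4 CPM. Both were above the control in 8 of 10 libraries, including all 3 of batch 1, and so were the glycolytic genes *Eno1* and *Aldoc*, while *Pgk1* was above it in 7 of 10. The demethylase *Kdm3a* (51.9 CPM against 55.5 to 114 CPM) and the repressor *Mxi1* (32.6 CPM against 38.2 to 72.1 CPM) were above the control in 10 of 10. *Vegfa*, which RGCs secrete under low oxygen, stood at 55.6 CPM in the control and 41.7, 63.7 and 91.8 CPM in CKO libraries (log2 0.30 ± 0.28, SE), and the transporter *Slc2a1* was at a log2 of -0.03. The transcription factor *Hif1a*, which is controlled mainly through its protein, was at 0.12. In amacrine nuclei 34 of the 39 were higher with a median of 0.36, and the genotype terms of RGCs and amacrine cells differed by a median of -0.05 over the list. *Ldha*, *Hk2* and *Eno1* are also abundant in rods, at 279, 159 and 164 CPM.

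**Figure D2:**
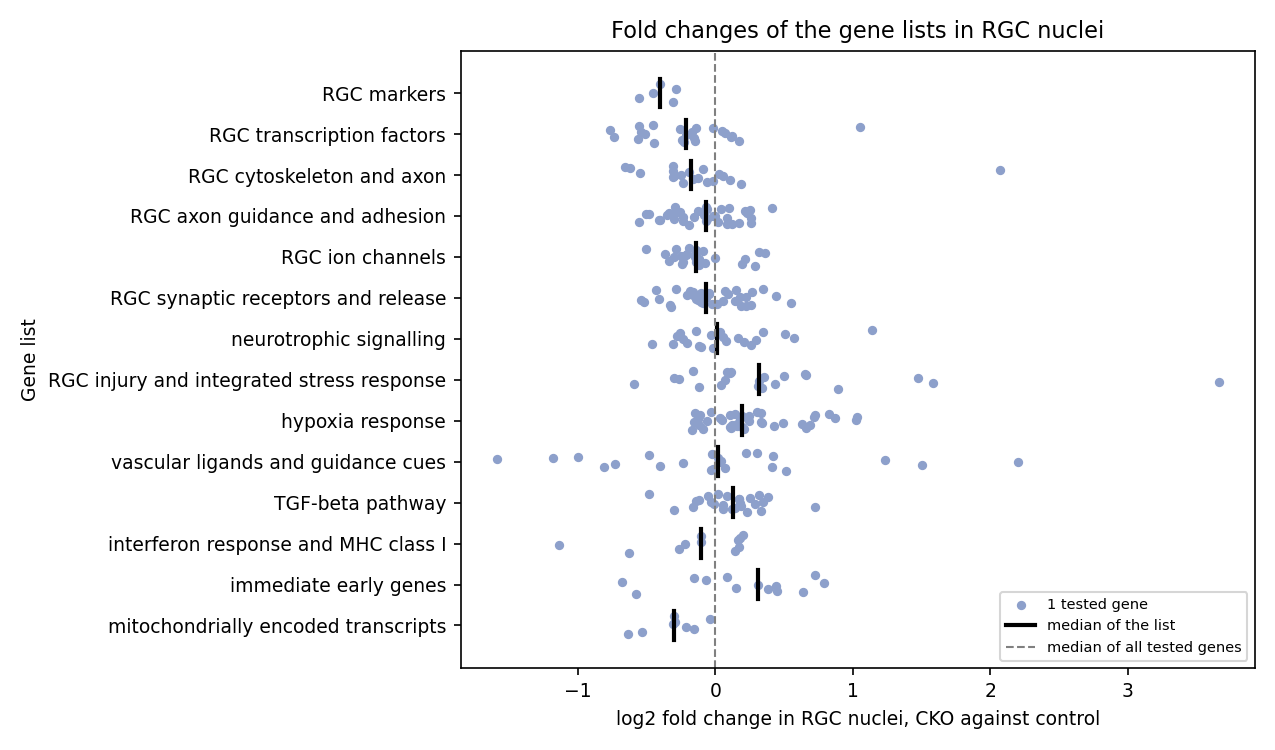
Log2 fold change of each tested gene of 14 gene lists in RGC nuclei, CKO against control, with batch and kit in the model. Black lines are list medians, from -0.40 for the RGC markers to 0.32 for injury and stress genes, and the dashed line is the median of all 13329 genes at 0.00.

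Of 23 tested vascular ligands and guidance cues 12 were higher and 11 lower in RGCs, with a median log2 fold change of 0.02. With kit only 15 were higher and 8 lower (median 0.11), and with genotype only 17 were higher and 6 lower (median 0.07). The summed level of the 43 listed genes, without TMM scaling, was 1125 CPM in the control. It was 1085, 1347 and 1654 CPM at the lowest, median and highest CKO library, above the control in 9 of 10. *Slit2* alone made up 51.0% of this sum, so the sum does not show a rise across the list. *Bmp6*, a bone morphogenetic protein that signals to ECs, stood at 42.5 CPM in control RGCs and 6.49, 11.4 and 22.5 CPM in CKO libraries, lower in 10 of 10 (log2 -1.59 ± 0.39, SE). In amacrine nuclei *Bmp6* was 23.9 CPM in the control and 16.0 to 30.2 CPM in CKO libraries, so the groups overlapped there. *Fgf2*, a growth factor for ECs and neurons, stood at 5.36 CPM in control RGCs and 9.16, 19.7 and 45.0 CPM in CKO libraries. Its level in rods was 119 CPM over all libraries, and its log2 fold change was 2.21 in RGCs and 2.06 in amacrine nuclei. *Pdgfd* stood at 14.8 CPM against 7.33, 30.1 and 69.4 CPM, higher in 7 of 10 libraries, and *Slit2* at 538 CPM against 560 to 926 CPM, higher in 10 of 10. *Angpt2*, which antagonizes TIE2 on ECs, stood at 4.95 CPM from 12 UMIs in the control and 0 to 3.71 CPM in CKO libraries, and *Mcph1* overlaps it on the opposite strand.

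Interferon and MHC class I genes were sparse in RGCs. Of 40 listed genes 11 could be tested, 5 higher and 6 lower with a median log2 fold change of -0.10. The summed level of the list, without TMM scaling, was 111 CPM in the control and 103 to 155 CPM in CKO libraries. By that sum 9 of 10 CKO libraries were above the control. Over the alternatives run the median ranged from -0.14 to 0.20, so its sign was not stable. In amacrine nuclei 8 of 10 tested genes of the list were higher, with a median of 0.40. The genotype term of RGCs lay below that of amacrine nuclei for all 11 genes, by a median of -0.59. Over all tested genes it lay above for 6804 and below for 6525. *B2m*, the invariant chain of MHC class I, had 37 UMIs in all RGC nuclei. Immediate early genes were higher for 9 of 13 (median 0.31), with *Nr4a1* at 12.8 CPM in the control and 17.2 to 45.8 CPM in CKO libraries, above it in 10 of 10. Without CKO replicate 1 they were 6 higher and 5 lower, with a median of 0.01. Transcripts encoded by the mitochondrial genome were lower for 8 of 8 (median -0.30, and -0.72 with kit only), with a sum of 108 CPM in the control and 26.3, 76.3 and 117 CPM in CKO libraries. In amacrine nuclei 6 of those 8 were higher. Nuclear preparations hold little mitochondrial RNA, and its part in these sums was not tested.

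The 10 higher and 10 lower genes with the smallest p-values, none of which passed the adjusted threshold, were examined in every library. Among those that were lower, *Gm17167* (a long noncoding RNA) had the smallest p, with 47.4 CPM in control RGCs and 8.14, 14.6 and 20.8 CPM at the lowest, median and highest CKO library. Its log2 fold change was -1.68 ± 0.31 (SE, adjusted p = 0.419 by edgeR). Amacrine nuclei showed the same gap, 62.6 CPM against 10.3 to 21.5 CPM, and there edgeR called it (adjusted p = 0.00463). *Nedd9*, a scaffold of integrin signaling, stood at 21.8 CPM in control RGCs and 4.65 CPM at the lowest and 8.20 CPM at the median CKO library, below the control in 10 of 10 (log2 -1.83 ± 0.36, SE). In amacrine nuclei *Nedd9* overlapped between the groups, at 15.7 CPM against 11.2 to 18.8 CPM. *Zfp618* was 181 CPM in the control and 113, 134 and 163 CPM in CKO libraries, and *Pcsk2*, a prohormone convertase, 404 CPM and 277, 313 and 371 CPM. *2410006H16Rik*, which overlaps small nucleolar RNA genes on its own strand, was 80.8 CPM against 19.6 to 46.7 CPM. *Tmub1* had 17 UMIs in the control and 3 in batch 1 CKO RGCs, a ratio of 0.0811 with a counting interval of 0.0152 to 0.281. *Bmp6* is described above, and of the other 3 genes *Wdyhv1* was lower than the control in 10 of 10 CKO libraries and *Tdrd3* and *Dcaf5* in 7 of 10.

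Among the genes that were higher, *Gm48236*, a long noncoding RNA on the strand opposite to *Ahr*, stood at 8.24 CPM in control RGCs and 18.2, 32.8 and 50.4 CPM in CKO libraries. Reads of *Gm48236* and *Ahr* cannot be told apart without strand, and whether the counting used strand is not stated. *Ftl1*, ferritin light chain, was 5.36 CPM in the control and 5.72, 17.1 and 25.6 CPM in CKO libraries. *Ghr*, the growth hormone receptor, was 93.2 CPM and 126, 148 and 176 CPM (log2 0.69 ± 0.18, SE). For all 3 genes the control was below all 10 CKO libraries. *Ghr* overlapped between the groups in amacrine nuclei, with 249 CPM in the control and 201 to 294 CPM in CKO libraries, and its level in rods was 0.183 CPM. *Bsg*, which encodes basigin, a partner of lactate transporters, was 22.7 CPM in the control and 18.3, 46.4 and 52.7 CPM in CKO libraries, higher in 8 of 10. In amacrine nuclei *Bsg* was 35.7 CPM against 23.4 to 63.5 CPM. *Lipo2* had 0 UMIs in control RGCs and was at least 7.05-fold higher in batch 1 CKO RGCs, taking 3 UMIs as the floor for the control. *Gm27177* had 0 UMIs in the control as well and was at least 6.13-fold higher by the same floor, with 0 UMIs also in some CKO libraries. *Gm15983*, *Gm9869* and *D3Ertd751e* were above the control in 10 of 10 CKO libraries, and *Ldha* is described above.

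**Figure D3:**
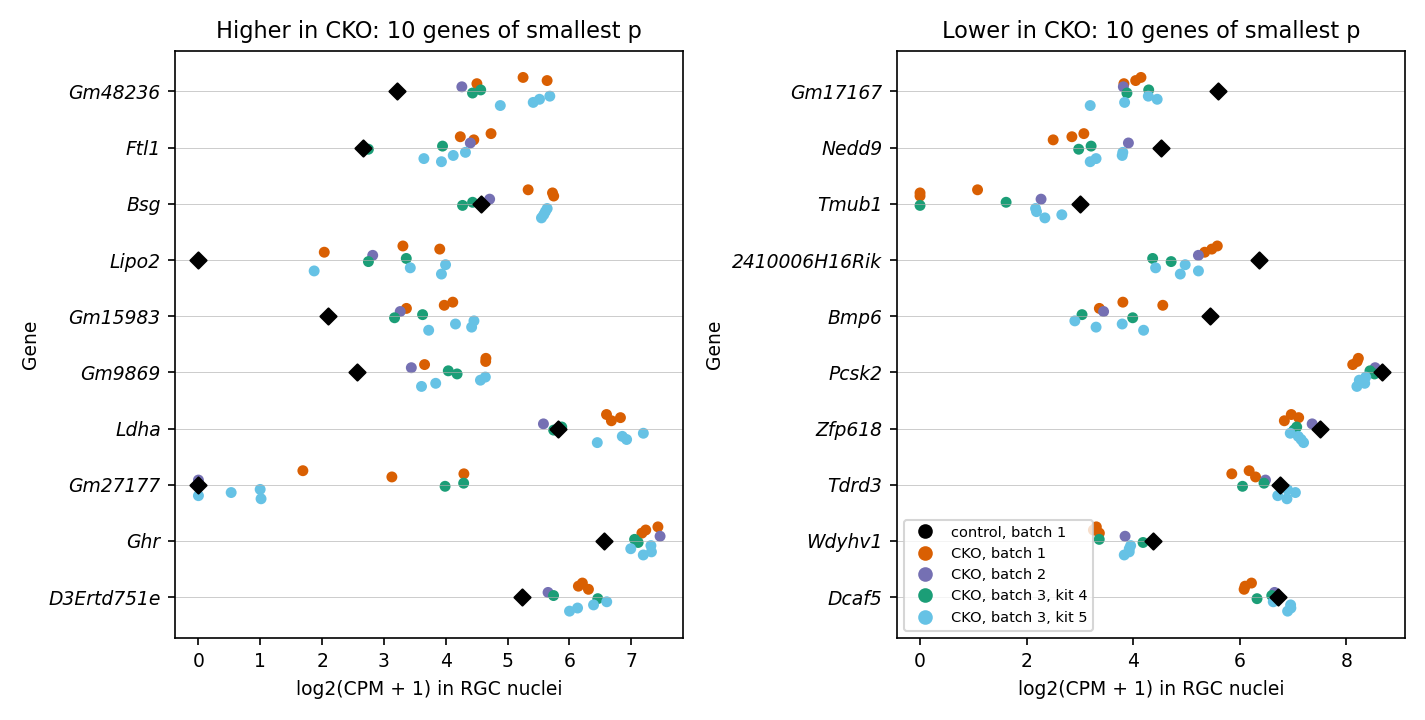
Level in RGC nuclei, as log2(CPM + 1), of the 10 higher and 10 lower genes with the smallest p-values, with the control as a black diamond and the 10 CKO libraries as circles colored by batch and kit. The control lies outside the range of the CKO libraries for *Gm17167*, at 47.4 CPM against 8.14 to 20.8 CPM, and inside it for *Bsg*, at 22.7 CPM against 18.3 to 52.7 CPM.

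Several of the genes that were higher are more abundant in rods than in RGCs. *Gm48236* stood at 139 CPM in rods, *Gm15983* at 84.1 CPM and *D3Ertd751e* at 121 CPM, compared with 30.6, 12.7 and 67.0 CPM in RGCs over all libraries. All 10 rod markers had UMIs in RGC nuclei, led by *Sag*, and summed to 3660 CPM in the control and 2381, 3999 and 5374 CPM at the lowest, median and highest CKO library, compared with 22786 CPM in rods. In batch 1 the sum was 4256 to 5374 CPM, above the control in all 3 CKO replicates. Cone markers, 8 of 8 with UMIs and led by *Arr3*, summed to 114 CPM in the control and 56.0, 221 and 290 CPM in CKO libraries. Red blood cell genes, 5 of 5 with UMIs and led by *Hbb-bs*, summed to 5.36 CPM in the control and 4.58, 92.9 and 269 CPM in CKO libraries. Bipolar markers summed to 1836 CPM against 1392, 1799 and 2337 CPM and were led by *Prkca*, and amacrine markers summed to 1464 CPM against 1310, 1488 and 1662 CPM and were led by *Dab1*. Horizontal cell markers, led by *Tpm3*, summed to 176 CPM against 143, 203 and 236 CPM. Müller glia markers, led by *Glul*, summed to 192 CPM against 125, 217 and 384 CPM, and astrocyte markers, led by *Slc1a2*, to 297 CPM against 247, 319 and 411 CPM. Endothelial and mural markers, led by *Flt1*, summed to 34.2 CPM against 23.4, 52.8 and 79.8 CPM. All listed genes of these cell types had UMIs in RGC nuclei, so no marker was at 0, and their part in the results was not tested.

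To ask whether a difference was particular to RGCs, the genotype term of RGCs was tested against that of amacrine nuclei from the same libraries. Of 13329 genes 1 was called (0.0075%), and 487 (3.65%) had an unadjusted p under 0.05. The called gene was *Pdzrn4*, a ubiquitin ligase with PDZ domains. It stood at 66.8 CPM in control RGCs and 36.4, 54.7 and 116 CPM at the lowest, median and highest CKO library, and at 48.7 CPM in control amacrine nuclei and 47.7, 73.9 and 118 CPM in CKO ones. The groups overlapped in both cell types, with RGC levels in batch 1 below the control in all 3 CKO replicates. The terms differed by -1.42 ± 0.24 on the log2 scale (SE, adjusted p = 0.0399 by edgeR), from a log2 fold change of -0.65 in RGCs and 0.83 in amacrine nuclei, neither called alone. The call was lost when kit was the only covariate, among genes with at least 200 UMIs, and without CKO replicate 2, 3, 6, 7, 9 or 10. For *Nedd9*, *Bmp6*, *Bsg* and *Ghr* the terms differed by -1.56, -1.12, 1.11 and 0.76, and none of these passed the adjusted threshold.

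RGC subtypes were followed through 30 marker genes of 7 subtype groups. Each RGC nucleus was thinned to 2000 UMIs, which kept 1377 nuclei of the 11 libraries (215 in the control and 47 to 286 in CKO libraries), left out 288 shallower ones, and kept 10452 amacrine nuclei. Median depths before thinning were 10303 UMIs in these RGC nuclei and 5116 in the amacrine ones. Several markers were found in RGC nuclei well above amacrine nuclei. *Foxp2* was in 12.8% of thinned RGC nuclei and 0.746% of amacrine nuclei. *Tfap2d* was in 12.4% and 2.97%, *Trarg1* in 5.01% and 0.172%, and *Tbx20*, a gene of intrinsically photosensitive RGCs, in 3.12% and 0.067%. *Ebf3* was in 31.6% and 17.6%. *Col25a1*, *Cdh6*, *Il1rapl2*, *Slc17a7*, *Serpine2* and *Neurod2*, among others, were no more frequent in RGC than in amacrine nuclei, and their shares were read as no sign of a subtype. The photopigment *Opn4* was in 0.726% of RGC nuclei and in none of the amacrine nuclei.

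Some of these genes seldom met in the same nuclei. *Foxp2* and *Cdh6* met in 6 thinned nuclei, where 27.3 would be expected if they were independent within libraries. *Foxp2* and *Tfap2d* met in 6 against 21.1 expected, and *Tbx20* and *Tfap2d* in 0 against 5.28. Other pairs came together: *Cartpt*, a gene of direction-selective RGCs, met *Tfap2d* in 40 nuclei against 11.8 expected, *Foxp2* met *Trarg1* in 23 against 8.73, and *Tbx20* met *Cdh6* in 22 against 6.86. These 3 pairs cross the listed groups. Of pairs within a group, *Col25a1* and *Cdh6* met in 64 nuclei against 23.9 expected and *Cartpt* and *Cdh6* in 23 against 13.7, while *Trarg1* and *Tfap2d* met in 4 against 9.54. *Cdh6* and *Col25a1* are at least as frequent in amacrine nuclei, and the part of amacrine RNA in their pairs was not tested.

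The shares of subtype markers were then compared by library. With 1 control among 11 libraries the smallest possible p of the exact permutation test is 0.0909, so none of the 30 markers could pass the threshold and the count of 0 calls (0%) tests nothing. In the thinned nuclei 0 markers reached that smallest p. *Foxp2* was in 11.6% of control RGC nuclei and 7.95%, 13.4% and 18.5% at the lowest, median and highest CKO library. *Ebf3* was in 26.5% of control nuclei and 24.4%, 32.8% and 42.6% of CKO nuclei, above the control in 9 of 10. *Tbx20* was in 2.79% of control nuclei and 0% to 7.41% of CKO nuclei. The control lay inside the range of the CKO libraries for each of these 3 genes. *Zic1* was in 0 of 215 control nuclei, for which the exact interval reaches 1.70%, and in 8 of 10 CKO libraries, up to 4.55%, and without thinning *Zic1* was in 2.62% of control nuclei, inside the CKO range of 0.746% to 7.55%. For *Penk* the control lay outside the CKO range, in 0.873% of unthinned control nuclei (2 nuclei) against 2.29% to 8.06% of CKO nuclei, and likewise for unthinned *Eomes*, at 2.18% against 2.99% to 11.3%. At 4000 UMIs *Penk* stood at 0.985% against 1.15% to 6.52%, and *Pcdh20* at 3.45% against 0% to 2.53%. At 2000 UMIs all 3 overlapped between the groups. In the summed counts 28 of the 30 markers were tested, 17 higher and 11 lower, with a median log2 fold change of 0.04, and the control lay below all 10 CKO libraries for *Zic1* and *Penk* and above all 10 for *Pcdh20*.

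**Figure D4:**
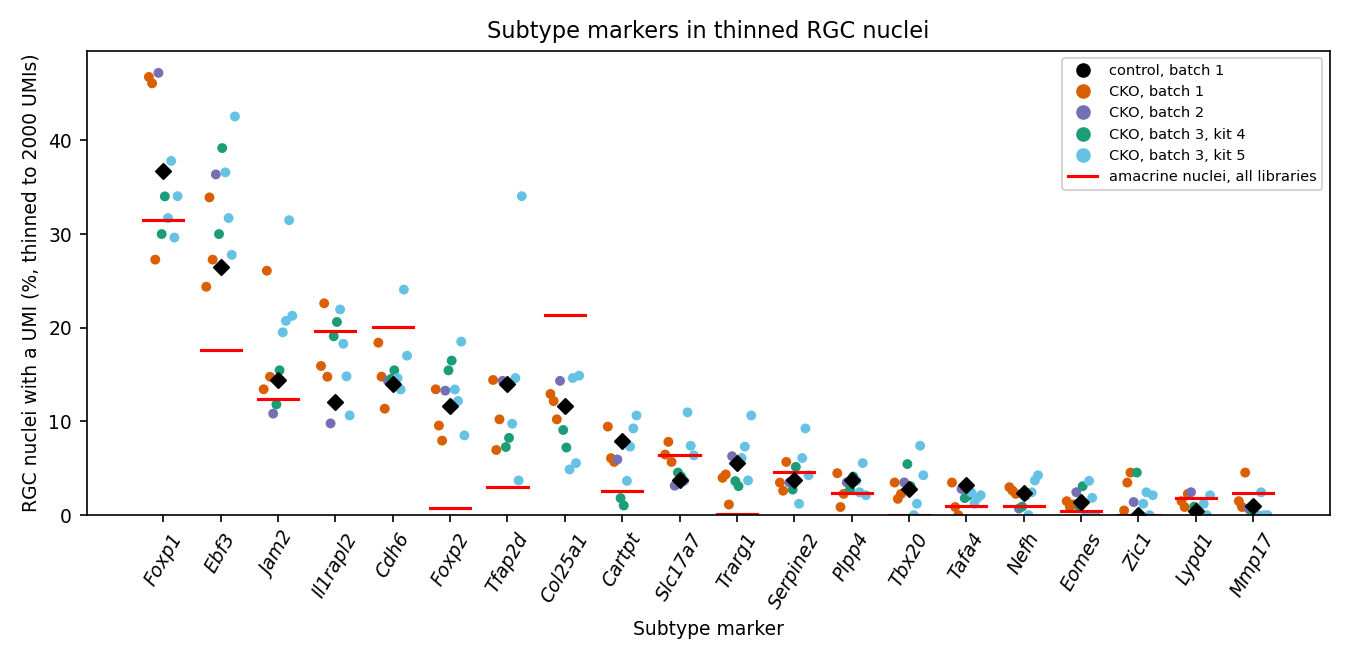
Share of RGC nuclei, thinned to 2000 UMIs each, with a UMI of subtype markers found in at least 1% of them, with the control as a black diamond and the 10 CKO libraries as circles colored by batch and kit. Red lines give the share in thinned amacrine nuclei, and the control for *Foxp2* at 11.6% lies inside the CKO range of 7.95% to 18.5%.

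Sex-linked genes differed between libraries within the CKO group. *Xist* was high in RGC nuclei of the control and CKO replicates 1, 2 and 7 and near 0 in the other passing libraries, which held Y-linked transcripts. The Y-linked *Uty*, for example, stood at 236 CPM in CKO replicate 3 and at 0.824 CPM in the control. Batch 1 thus set a control of high *Xist* against CKO replicates of both kinds. For all lists other than the sex-linked genes, placing genes with 0 UMIs in a group at their bound left the median log2 fold change as printed.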

How the data were processed

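For the retina the authors deposited a table of integer UMI counts, made according to the paper with PIPseeker on GRCm39, CellBender and SOLO, followed by removal of mixed nuclei by hand. The submitters' processing notes name mm10 and Seurat. Nuclei of the cell type RGC in the authors' table were summed per library. The RGC nuclei and the gene lists were chosen with earlier results of these data known. Libraries needed at least 10 RGC nuclei and 50000 RGC UMIs, and genes at least 50 UMIs and UMIs both in batches 1 and 2 and in batch 3, whose sets of gene symbols differ, which left out 564 of 13893 genes. *Sprr1a* and *Igtp* are not in the feature table.

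edgeR 4.0.16 in R 4.3.3 (TMM scaling, robust quasi-likelihood fit, Benjamini-Hochberg adjustment, threshold 0.05) used batch, kit and genotype as terms, so the genotype term rests on batch 1. The comparison with amacrine nuclei had the library as a block. The scripts were tested on simulated counts with changes only in abundant genes, the same spread for all genes and no batch or kit effect. That run checks the code and does not show how the fits perform on these data. Shares and medians were compared by two-sided exact permutation tests over libraries. CPM were computed from the RGC UMIs of each library without TMM scaling. Intervals are 95% (exact binomial for shares, exact Poisson for levels, exact conditional binomial for ratios) and cover counting error only. The floor for a count of 0 was 3 UMIs. Expected pairs of genes are sums over libraries of the product of both shares and the number of nuclei. Python 3.11.15 served for sums, shares and figures (matplotlib 3.10.9, pandas 2.3.3, scipy 1.17.1, numpy 2.4.6).

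Named genes were the 5 markers, the 10 higher and 10 lower genes with the smallest p-values, *Tgfbr1*, *Tgfbr2*, *Tgfbr3*, *Vegfa*, sex-linked genes, the 10 genes of highest RGC ratio and the subtype markers. Other list genes were named after their values were seen. Gene positions come from GENCODE M39, in which 513 of 516 named genes were matched by symbol.

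Alternatives covered covariates, an *Xist* term, batch 1 alone, RLE size factors, no scaling beyond the total, DESeq2 1.42.0, other count minimums, genes with UMIs on 1 side of that split, rod genes, nuclei with a marker or with at least 2000 UMIs, other denominators and definitions of the share, thinning, and leaving out each CKO library. The non-robust fit, the fit with CKO replicate 4 and the other RGC shares without it were added after the data had been seen. Brain libraries and the UMAP coordinates were not used. Single values of some listed genes are not reported here.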

Additional observations from a re-analysis of the deposited data

Results flagged for a closer look

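Values of 10 CKO libraries were checked for a highest or lowest library far from the rest by Dixon's criterion, in 50 quantities, of which chance flags about 1 in 20. *Tgfbr1* stood at 65.4 CPM in RGC nuclei of CKO replicate 8, above the other 9 libraries and the control. *Tfap2d* was in 34.0% of thinned RGC nuclei of CKO replicate 11, the library with the fewest thinned RGC nuclei (47), against a median of 9.99% over CKO libraries. Without thinning this library stood at 33.9%, against a CKO median of 22.4% and 30.1% in the control. By a test of the difference itself, *Pdzrn4* had genotype terms in RGC and amacrine nuclei that differed by -1.42 on the log2 scale.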

How the results depend on the processing

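The counts of RGC genes called, 0 higher and 0 lower, were the same under every alternative run apart from 2. With batch 1 alone, 2 of 10677 genes were higher (*Hba-a1*, *Gm26954*) and 2 lower (*Gm17167*, *1700047F07Rik*), from 2 residual degrees of freedom. With genes of at least 1 UMI, 18 were higher and 7 lower of 23505, and *Gm48236*, *Gm17167*, *Nedd9*, *Bmp6*, *Ftl1*, *Lipo2*, *Gm9869*, *Gm27177*, *2410006H16Rik*, *Stat3*, *Fgf2* and *Pdgfd* were among them, and so were *Gnb3*, *Cngb1* and *Mpp4*, at 221, 631 and 1353 CPM in rods, and the hemoglobin gene *Hbb-bt*. The adjusted p of *Gm17167* there was 0.00042, and the cause was not tested. Without each CKO replicate in turn the counts were 0 to 0 in both directions. The genotype term rests on batch 1, so leaving out a CKO library of another batch barely moves its estimates. For example, the median log2 fold change over the 5 markers was -0.403 in the main fit and -0.395 without CKO replicate 5. The count of genes called for RGC against amacrine nuclei was 1, but 4 with batch 1 alone, 0 with kit as the only covariate and 0 with at least 200 UMIs, and 0 to 1 without each CKO replicate in turn. The count of subtype markers at the smallest p was 0, but 1 when nuclei were thinned to 4000 UMIs, and 0 to 2 without each CKO replicate. The CKO mean of the RGC share was above the control by 0.202 to 4.77 percentage points under the alternatives planned, of which the largest came from CKO replicate 4. Without that replicate the difference reversed to -0.118 among nuclei with at least 1000 UMIs, was 0.128 among nuclei other than rods, with 4 of 10 libraries above the control, and 0.397 for nuclei with 2 markers. The difference in median UMIs per nucleus was 3003 over all passing libraries and reversed to -1062 with kit version 4 only. All 20 genes of smallest p kept their sign under the alternatives run, which tests nothing, since they were chosen by p in these same data. With kit only the log2 fold change of *Bsg* went from 0.99 to 0.59, of *Ldha* from 0.83 to 0.45 and of *Nedd9* from -1.83 to -1.40. That of *Tmub1*, which rests on 3 UMIs in batch 1 CKO RGCs, ranged from -6.65 to -1.63. *Tgfbr1*, *Tgfbr3* and *Vegfa* kept theirs too, and of 48 genes followed, *Pou4f2* and *Nefl* did not.

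A single control library, an unknown number of mice per library and a batch 1 of 4 libraries limit every comparison. With 6 residual degrees of freedom and a common biological coefficient of variation of 0.133, small differences in RGCs could not be shown. Large ones also missed the adjusted threshold, such as those of *Nedd9* and *Gm17167*. The tested red blood cell genes missed it as well, with a median log2 fold change of 4.90. Exact tests over 11 libraries cannot go below 0.0909. Where CKO libraries of batches 2 and 3 differ from the control, genotype, batch, kit and gene symbols cannot be told apart. Shares of nuclei depend on capture and on the authors' removal of nuclei, and CKO replicates 4 and 5 lost clusters by hand. A p that missed the threshold does not show that RGCs of both genotypes were alike.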
